A study of Mus musculus with 12 samples.

Results

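The nuclear RNA polymerases I, II and III and their dedicated initiation factors were followed in mouse splenic B lymphocytes through 37 genes. They were taken by gene symbol, as every Polr1, Polr2 or Polr3 symbol ending in letters, together with Rrn3, Ubtf, Taf1a, Taf1b, Taf1c, Taf1d, Brf1, Brf2 and Bdp1. These 37 were found among the 24982 symbols of the deposited tables. They comprised 3 subunits of polymerase I alone, 2 shared by polymerases I and III, 5 shared by all 3 enzymes, 8 genes counted with polymerase II alone, one of which, Polr2m, encodes an associated protein and no core subunit, and 10 of polymerase III alone. The other members were 6 polymerase I initiation factors and 3 genes of the polymerase III factor TFIIIB. TFIIIB is taken here without Tbp, which is listed with the polymerase II factors. Polr1f, Polr1g and Polr1h were not listed under those symbols, and their older names Twistnb, Cd3eap and Znrd1 are given with the related genes.

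Polymerase I makes the large ribosomal RNA precursor in the nucleolus, polymerase II makes messenger RNA, and polymerase III makes transfer RNAs, the small ribosomal RNA of the large subunit and other short RNAs. Each enzyme has its own catalytic pair of large subunits, and they share a set of small ones, so that the shared subunits serve several enzymes at once. Myc is a transcription factor known to raise ribosome production in growing B cells, and it acts on genes read by all of these enzymes.

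The study compared primary B lymphocytes from the spleens of mice 6 weeks old, to catalogue the expression changes brought by Myc and to ask how loss of PRPS2 bears on them. There were 12 libraries of polyadenylated RNA, 4 biological replicates in each of 3 groups: WT mice, described in the design as C57BL/J6, Eμ-Myc transgenic mice, and Eμ-Myc; PRPS2 KO mice, referred to as knockouts or the knockout group. The Eμ-Myc transgene drives Myc from the immunoglobulin heavy-chain enhancer and is carried by both the Eμ-Myc and the knockout group. PRPS2 belongs to the synthetases of phosphoribosyl pyrophosphate, from which nucleotides are built. The labels do not say whether the deletion was confined to B cells, and a PRPS2 KO group without the transgene was not analysed here.

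The values are scaled coverages, which are the authors' coverage of each gene divided by a factor per library. The factor levels the typical gene between libraries, so rises and falls are relative, and amounts of RNA per cell cannot be read from them. The summed coverage of a library ran from 1277305.5 to 1885768.9, and read depth is unknown, so errors are SDs between the 4 libraries of a group. Prps2 lay at 16.4 to 18.4 in the knockout libraries and at 192 to 288 in Eμ-Myc, and Myc lay at 231 to 352 in WT and at 1508 to 2262 in Eμ-Myc. Markers of B cells, summed over 6 genes, lay between 5922 and 11410 in all libraries. Among the knockout libraries, 1 and 2 stood apart from 3 and 4: Myc was 1107, 1661, 3048 and 3318, and the summed T-cell markers were 537, 570, 14.1 and 12.5. Counts of called members in the knockout group are therefore also given without one or the other pair.

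In Eμ-Myc against WT, 26 of the 37 genes rose and none fell, by limma's test with Benjamini-Hochberg adjustment over all genes tested. Of the 12704 genes tested, 55.7% were called, 28.3% as higher and 27.4% as lower. The median log2 fold change was 0.57 over the 37 genes and -0.06 over all genes tested. With total coverage scaling these medians were 0.45 and -0.19, and 23 of the genes were called higher and 2, Polr3gl and Taf1c, lower, while over all genes the calls turned to 24.1% higher and 33.3% lower. Every library of Eμ-Myc lay above every WT library for 26 of the 37 genes, against 26.2% of all genes tested. The second-largest subunit of each enzyme rose, and so did Polr1a, the catalytic subunit of polymerase I. Polr2a and Polr3a, the catalytic subunits of polymerases II and III, were not called. The 3 TFIIIB genes among the members were not called either. Tbp, outside the members, was called higher, with a log2 fold change of 0.36 and an adjusted p of 0.00703 from limma. In one fit of all 12 libraries, which called 43.4% of all genes, 20 members were called, and Polr2b, Polr2c, Polr2k, Polr3b, Polr3c and Polr3d were not among them.

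**Figure D1:**
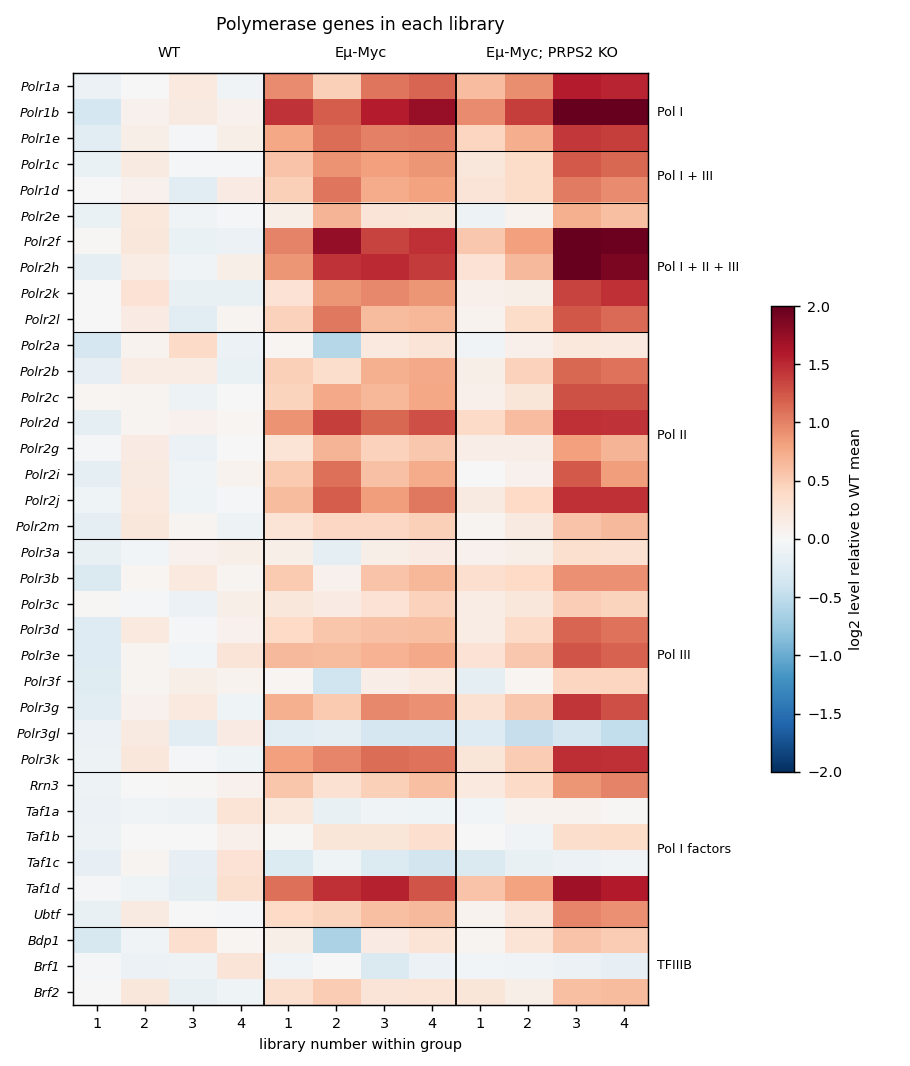
Level of 36 of the 37 genes (rows, grouped by enzyme) in each of the 12 libraries (columns), as log2 of scaled coverage relative to the WT mean; red is above and blue below the WT mean, and values past the end of the scale are drawn in its last colour. Most subunit rows are red in Eμ-Myc, while Polr2a, Polr3a, Polr3f, Polr3gl and Brf1 stay near or below the WT mean, and knockout libraries 3 and 4 are redder than 1 and 2.

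By enzyme, 3 of 3 subunits of polymerase I alone rose, with a median log2 fold change of 0.98. With the 3 subunits listed under older names (Cd3eap and Twistnb, which rose, and Znrd1, which was not called) 5 of 6 rose, with a median of 0.95. Both subunits shared by polymerases I and III rose, with a median of 0.78, and 4 of the 5 shared by all enzymes rose, with a median of 0.75. For polymerase II alone 7 of 8 rose, with a median of 0.61 (6 of 7 and 0.66 without Polr2m), and for polymerase III alone 7 of 10 rose, with a median of 0.50. The polymerase III class leaves out its subunit Crcp, listed under another symbol, which rose by 0.34. The median was 0.35 for the polymerase I factors, of which 3 of 6 rose, and -0.02 for TFIIIB. The TFIIIB median was -0.14 with total coverage scaling and 0.24 with a correction for transcript length. The polymerase I subunits had the highest and TFIIIB the lowest median in this comparison, there also under all 18 alternatives, but the order of the classes between them changed. With a correction for transcript length, polymerase III alone (0.53) passed polymerase II alone (0.50), and the subunits shared by all enzymes (0.57) passed those shared by polymerases I and III (0.55). The differences between classes were not tested. Library by library, the median of the polymerase I subunits lay at 0.95 to 1.17 in Eμ-Myc and that of TFIIIB at -0.01 to 0.27, on the log2 scale relative to the WT mean.

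**Figure D2:**
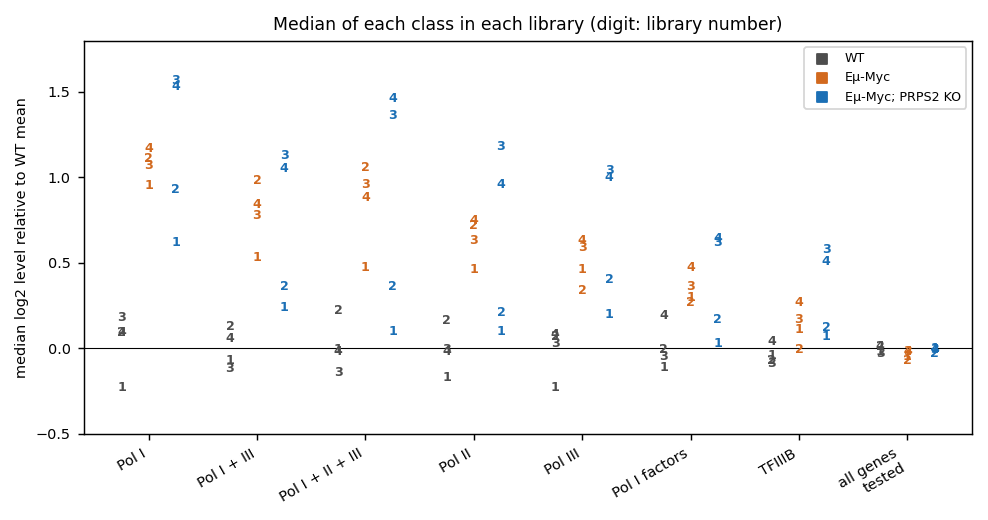
Median log2 level of each class of genes, relative to the WT mean, in every library; each digit is a library number and the colour gives the group. In Eμ-Myc the polymerase I subunits lay at 0.95 to 1.17 and TFIIIB at -0.01 to 0.27, the median of all genes tested stayed near 0 in each library, and knockout libraries 1 and 2 lay below 3 and 4 in every polymerase class.

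The promoter sequences of a few members are shown because Myc, as a dimer with Max, binds the E-box CACGTG, a palindrome that reads the same on both strands. Windows of 300 bases, from 250 before to 50 after the annotated start, came from RefSeq on assembly GRCm38.p6, and 29 of the 37 genes had one. The first 3 below belong to the gene of each enzyme's own subunits with the largest rise in Eμ-Myc among genes with a window, and hold no CACGTG. Polr1b lies at chr2:129100746-129101045, Polr2j at chr5:136116441-136116740 and Polr3k at chr2:181864110-181864409, all on the plus strand.
Polr1b: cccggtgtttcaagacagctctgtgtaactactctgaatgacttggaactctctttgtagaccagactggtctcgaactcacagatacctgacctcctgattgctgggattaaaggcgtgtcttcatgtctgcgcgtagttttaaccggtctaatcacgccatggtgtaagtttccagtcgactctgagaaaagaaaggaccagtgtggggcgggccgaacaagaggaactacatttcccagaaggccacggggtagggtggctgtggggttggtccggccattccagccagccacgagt
Polr2j: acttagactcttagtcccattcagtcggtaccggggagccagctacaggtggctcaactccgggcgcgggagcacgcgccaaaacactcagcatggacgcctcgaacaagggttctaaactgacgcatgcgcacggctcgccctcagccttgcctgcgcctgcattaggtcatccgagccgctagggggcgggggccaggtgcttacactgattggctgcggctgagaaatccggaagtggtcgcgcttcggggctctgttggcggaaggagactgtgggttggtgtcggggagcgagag
Polr3k: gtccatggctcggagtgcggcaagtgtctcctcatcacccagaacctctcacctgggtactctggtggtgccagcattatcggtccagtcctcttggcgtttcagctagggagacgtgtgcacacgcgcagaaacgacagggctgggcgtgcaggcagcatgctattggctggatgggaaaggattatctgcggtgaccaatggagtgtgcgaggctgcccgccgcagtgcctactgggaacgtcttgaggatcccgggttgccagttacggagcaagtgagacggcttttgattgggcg

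CACGTG was found in 5 of the 29 genes with a window, Polr2h, Polr3c, Polr3e, Polr3gl and Rrn3, which is 17.2%, against 8.09% of all genes with a window. Of these, 4 are printed, with the motif in capitals, as examples from the shared, polymerase III and polymerase I genes, of which 3 rose and 1 did not. Rrn3, with 2 copies, lies at chr16:13780449-13780748, Polr2h at chr16:20717576-20717875 and Polr3e at chr7:120917528-120917827, all on the plus strand, and Polr3gl lies at chr3:96594132-96594431 on the minus strand.
Rrn3: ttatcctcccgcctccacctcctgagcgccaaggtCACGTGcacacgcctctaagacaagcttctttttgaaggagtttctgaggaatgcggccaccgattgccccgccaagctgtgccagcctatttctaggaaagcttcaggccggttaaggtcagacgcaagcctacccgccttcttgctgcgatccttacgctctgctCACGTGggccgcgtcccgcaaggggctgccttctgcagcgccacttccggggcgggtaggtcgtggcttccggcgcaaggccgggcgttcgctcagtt
Polr2h: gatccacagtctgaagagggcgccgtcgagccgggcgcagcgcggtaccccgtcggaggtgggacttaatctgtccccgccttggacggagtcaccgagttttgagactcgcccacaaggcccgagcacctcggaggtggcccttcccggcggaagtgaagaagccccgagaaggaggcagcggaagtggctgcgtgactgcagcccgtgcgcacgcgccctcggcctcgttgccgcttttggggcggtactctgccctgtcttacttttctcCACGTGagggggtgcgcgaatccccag
Polr3e: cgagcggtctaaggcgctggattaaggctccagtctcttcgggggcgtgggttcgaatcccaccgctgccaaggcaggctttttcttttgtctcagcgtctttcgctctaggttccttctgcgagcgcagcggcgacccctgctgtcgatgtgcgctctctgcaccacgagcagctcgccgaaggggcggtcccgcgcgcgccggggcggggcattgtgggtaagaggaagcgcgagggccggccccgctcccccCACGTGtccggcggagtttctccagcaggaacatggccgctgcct
Polr3gl: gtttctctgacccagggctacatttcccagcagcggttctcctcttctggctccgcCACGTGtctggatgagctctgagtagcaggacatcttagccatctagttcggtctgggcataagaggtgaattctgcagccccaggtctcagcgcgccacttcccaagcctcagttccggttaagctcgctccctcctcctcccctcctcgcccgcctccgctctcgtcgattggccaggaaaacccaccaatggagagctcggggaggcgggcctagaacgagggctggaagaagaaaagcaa
The 5 genes did not move alike: Polr2h, Polr3c, Polr3e and Rrn3 were called higher in Eμ-Myc, and Polr3gl was not called, with a log2 fold change of -0.27. Whether Myc occupied any of these sites was not measured.

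Of the polymerase I subunits, Polr1a encodes the largest, catalytic subunit. Its scaled coverage was 22.2, 24.1, 27.8 and 23.0 in WT, 47.1, 33.9, 51.2 and 55.0 in Eμ-Myc and, in the knockouts, 37.3, 46.4, 72.9 and 70.6. All 8 libraries with the transgene lay above the 4 of WT. The log2 fold change in Eμ-Myc was 0.91 ± 0.16 (SE), with an adjusted p of 0.00109 from limma.

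Polr1b, the second-largest subunit, had the larger rise. It lay at 14.0, 19.2, 20.5 and 19.2 in WT, at 49.9, 42.4, 54.5 and 61.4 in Eμ-Myc and, in the knockouts, at 35.2, 48.0, 87.0 and 85.1. The groups did not overlap with WT, and Eμ-Myc was 2.81-fold higher, a log2 fold change of 1.49 ± 0.16 with an adjusted p of 5.98e-05. Polr1e, which with the Cd3eap product forms a dimer on the body of the enzyme, rose from 31.6 ± 3.53 to 62.7 ± 6.22 (SD, n = 4), a log2 fold change of 0.98.

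Polr1c and Polr1d encode the pair of assembly subunits that polymerases I and III have in common. Polr1c rose from 89.9 ± 8.84 to 156 ± 15.8, and Polr1d rose from 132 ± 14.9 to 228 ± 37.7. Their log2 fold changes, 0.79 and 0.77, were close to each other.

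Among the subunits shared by all enzymes, Polr2f and Polr2h had the largest rises. Polr2f lay at 105, 121, 93.9 and 95.4 in WT and at 205, 349, 265 and 284 in Eμ-Myc, 2.62-fold higher, with an adjusted p of 9.86e-05 from limma. Polr2h lay at 54.0, 68.1, 58.1 and 66.3 in WT and at 113, 168, 173 and 163 in Eμ-Myc, 2.47-fold higher, with an adjusted p of 1.02e-04. For both genes the lowest Eμ-Myc library was well above the highest WT library.

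Polr2k and Polr2l, the smallest shared subunits, rose by less. Polr2k went from 74.4 ± 11.1 to 127 ± 24.4 and Polr2l from 15.8 ± 1.76 to 26.3 ± 4.84, with log2 fold changes of 0.75 and 0.71. Polr2e was the shared subunit that was not called: it lay at 154 to 197 in WT and 183 to 272 in Eμ-Myc, and the groups overlapped (log2 fold change 0.33, adjusted p = 0.0704). It was called higher in 3 of 18 alternatives, with the replicate block and without WT library 2 or Eμ-Myc library 1, at adjusted p down to 0.0199.

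Polr2a encodes the catalytic subunit of polymerase II, with the repeated tail that carries its phosphorylation marks. It lay at 78.7, 105, 131 and 92.0 in WT, at 103, 66.9, 114 and 120 in Eμ-Myc and, in the knockouts, at 95.0, 107, 116 and 115. The 3 groups overlapped, and the log2 fold change in Eμ-Myc was -0.02 ± 0.21, with an adjusted p of 0.946 from limma. Polr2b, the second-largest subunit, lay at 56.5, 70.2, 69.8 and 57.2 in WT, at 87.6, 80.2, 104 and 107 in Eμ-Myc and, in the knockouts, at 68.2, 87.1, 140 and 134. Here Eμ-Myc and WT did not overlap, and the rise was 1.49-fold, with an adjusted p of 0.00475, which was 0.0509 in one fit of all 12 libraries.

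The other subunits of polymerase II alone rose as well. The stalk is formed by the Polr2d and Polr2g products, and Polr2d had the larger rise of this class, from 83.5 ± 6.82 to 191 ± 26.9, with a log2 fold change of 1.18. Polr2g rose by 0.49 on the log2 scale, which was 0.16 and not called (adjusted p = 0.0793) with the correction for transcript length. The assembly pair Polr2c and Polr2j rose by 0.66 and 0.94, and Polr2i, whose product acts in start-site choice and proofreading, rose by 0.74. Polr2m, which encodes a protein that associates with part of the polymerase II pool rather than a core subunit, rose from 272 ± 34.5 to 357 ± 21.5, a log2 fold change of 0.40. Its call was lost with total coverage scaling (0.27, adjusted p = 0.0654).

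Polr3a and Polr3b encode the catalytic pair of polymerase III. Polr3a lay at 15.9, 17.0, 18.8 and 19.2 in WT, at 19.3, 15.6, 19.3 and 19.8 in Eμ-Myc and, in the knockouts, at 18.8, 19.3, 22.1 and 22.0. Eμ-Myc overlapped WT, with a log2 fold change of 0.06 ± 0.13 and an adjusted p of 0.726. Polr3b lay at 23.8, 29.8, 33.3 and 30.4 in WT, at 42.1, 30.9, 43.7 and 46.2 in Eμ-Myc and, in the knockouts, at 36.9, 38.7, 55.3 and 55.6. It was called higher in Eμ-Myc, with a log2 fold change of 0.46 ± 0.16 and an adjusted p of 0.0307, although Eμ-Myc library 2 lay inside the WT range. That call was lost on leaving out any 1 of WT libraries 1 or 2 or of Eμ-Myc libraries 1, 3 or 4, with adjusted p up to 0.143 over all alternatives.

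Other subunits of polymerase III alone rose too. Polr3k, a small subunit that acts in RNA cleavage and termination, rose from 27.8 ± 3.22 to 56.1 ± 5.13, a log2 fold change of 1.00. Polr3d and Polr3e, which form a dimer on the enzyme, rose by 0.53 and 0.68.

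Polr3c, Polr3f and Polr3g or Polr3gl encode a subcomplex of polymerase III that acts in initiation. Polr3f was not called, at 19.8 ± 2.17 in WT and 19.9 ± 3.49 in Eμ-Myc. Polr3c was called at 75.8 ± 5.11 and 92.7 ± 8.32, a log2 fold change of 0.29 with an adjusted p of 0.0339 from limma. The Polr3c call was lost without any 1 of WT libraries 1, 2 and 3 or Eμ-Myc libraries 3 and 4, with adjusted p up to 0.193 over all alternatives.

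Polr3g and Polr3gl are paralogs whose products take the same place in alternative forms of the enzyme. The Polr3g form is known from embryonic and transformed cells, and the Polr3gl form is the common one in differentiated tissue. Polr3g lay at 7.99, 9.95, 10.8 and 8.77 in WT, at 15.5, 13.6, 18.6 and 18.1 in Eμ-Myc and, in the knockouts, at 11.6, 13.8, 26.0 and 23.4. It rose in Eμ-Myc by 0.78 ± 0.16 on the log2 scale, with an adjusted p of 0.00265 from limma and no overlap with WT.

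Polr3gl lay at 71.0, 87.4, 66.5 and 86.9 in WT, at 66.4, 68.5, 61.3 and 61.2 in Eμ-Myc and, in the knockouts, at 64.5, 56.2, 61.5 and 55.0. It was not called in Eμ-Myc, with a log2 fold change of -0.27 ± 0.12 and an adjusted p of 0.0772, and Eμ-Myc overlapped WT. It was called lower with total coverage scaling, library quality weights, a correction for transcript length or without WT library 3, at adjusted p from 0.00552 to 0.0432. The level of Polr3g divided by that of Polr3gl averaged 0.122 ± 0.0272 over the WT libraries and 0.258 ± 0.0506 over those of Eμ-Myc (SD, n = 4). The ratio was 0.198 to 0.303 in the Eμ-Myc libraries and 0.101 to 0.162 in WT, without overlap. It is compared between groups here and not read as a ratio of molecules, since it is not stated how coverage was divided by gene length.

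**Figure D3:**
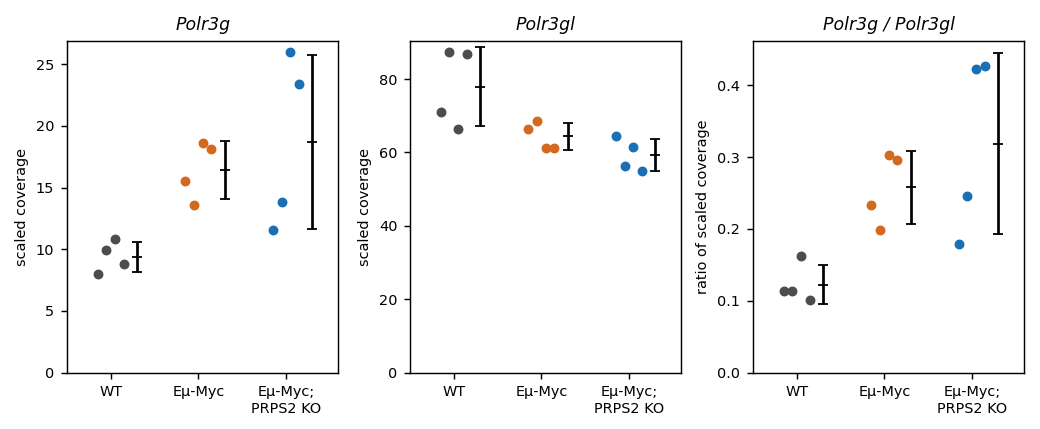
Scaled coverage of Polr3g and Polr3gl, and their ratio, in each library of the 3 groups; dots are libraries and bars give the mean ± SD of 4 libraries. The ratio lay at 0.101 to 0.162 for WT, at 0.198 to 0.303 for Eμ-Myc and at 0.179 to 0.427 for the knockouts.

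Of the polymerase I factors, Rrn3 makes the enzyme competent to start at the ribosomal RNA promoter. It lay at 34.0, 36.4, 37.2 and 38.7 in WT, at 53.8, 45.3, 51.1 and 56.0 in Eμ-Myc and, in the knockouts, at 41.9, 48.0, 67.7 and 73.2. All 8 libraries with the transgene were above WT, and the log2 fold change in Eμ-Myc was 0.49 ± 0.10, with an adjusted p of 0.00322 from limma. Ubtf, which coats active ribosomal DNA, lay at 807, 1013, 884 and 876 in WT, at 1179, 1221, 1348 and 1395 in Eμ-Myc and, in the knockouts, at 933, 1070, 1757 and 1684. It rose in Eμ-Myc by 0.52 ± 0.10, with an adjusted p of 0.0023.

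The members from the promoter selectivity factor SL1, which are Taf1a to Taf1d and not Tbp, did not move together. Taf1d lay at 181, 175, 161 and 230 in WT and at 396, 512, 538 and 445 in Eμ-Myc, 2.53-fold higher with an adjusted p of 5.76e-05 from limma and no overlap. Taf1a, Taf1b and Taf1c were not called, with log2 fold changes of -0.02, 0.21 and -0.25. Each of these 3 overlapped WT. Of 18 alternatives, 2 called Taf1b higher and 2 called Taf1c lower.

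The TFIIIB genes recruit polymerase III to its promoters: Brf1 serves transfer RNA genes, Brf2 serves genes with promoters outside the transcribed part, and Bdp1 serves both. Brf1 lay at 61.8, 58.4, 59.6 and 76.6 in WT, at 60.6, 63.2, 52.1 and 58.7 in Eμ-Myc and, in the knockouts, at 61.3, 60.6, 58.4 and 57.0. Its log2 fold change in Eμ-Myc was -0.12, with overlapping groups. Bdp1 lay at 11.3, 13.5, 18.0 and 14.6 in WT, at 15.4, 8.98, 16.0 and 17.2 in Eμ-Myc and, in the knockouts, at 14.8, 17.3, 21.3 and 20.4. Eμ-Myc overlapped WT at a log2 fold change of -0.02 ± 0.23.

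Brf2 lay at 15.1, 17.8, 13.6 and 14.2 in WT, at 19.0, 21.6, 18.2 and 18.4 in Eμ-Myc and, in the knockouts, at 17.9, 16.4, 23.1 and 23.7. Every Eμ-Myc library was above WT, but the adjusted p of 0.0502 from limma, at a log2 fold change of 0.34, missed the threshold of 0.05. Brf2 was called in 5 of 18 alternatives for this comparison.

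**Figure D4:**
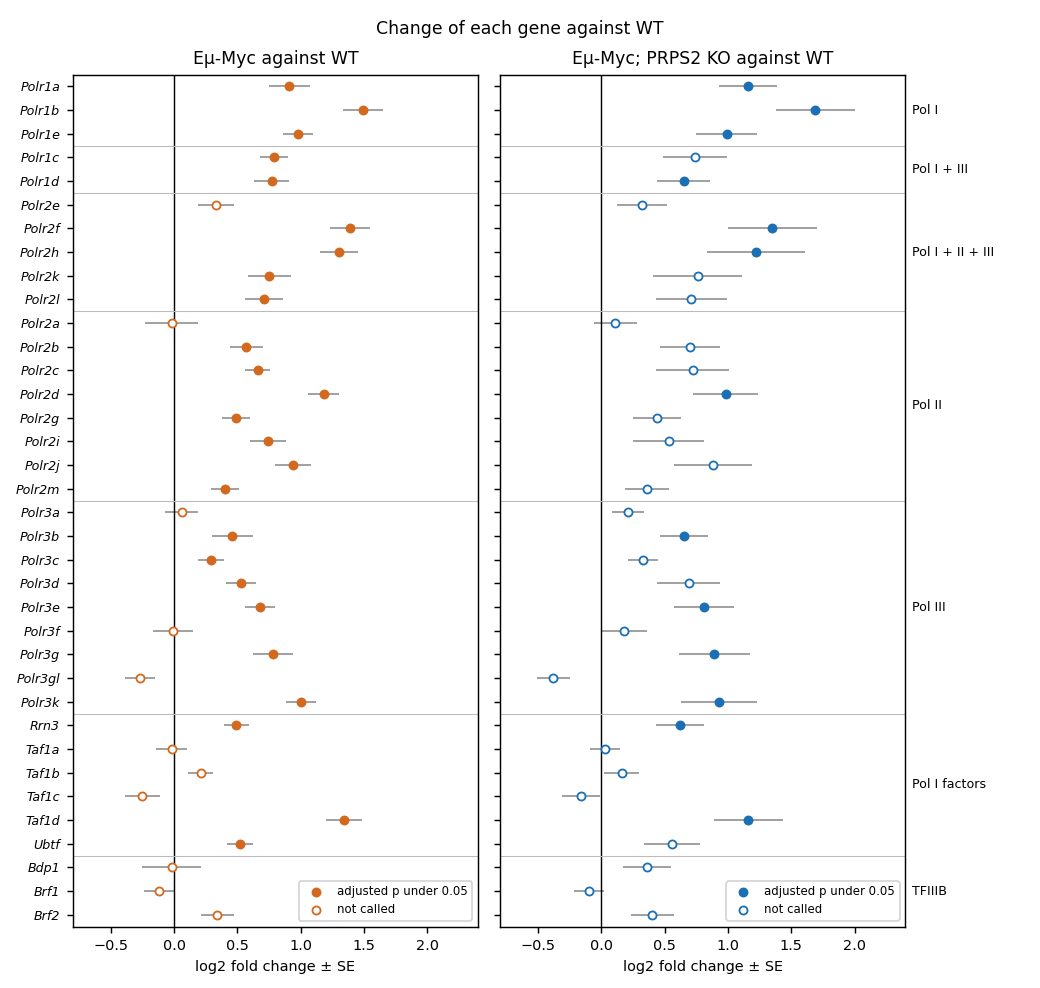
Log2 fold change ± SE of 36 of the 37 genes against WT, for Eμ-Myc (left) and for the knockout group (right), 8 libraries per comparison; filled points have an adjusted p under 0.05. The left panel has 25 filled genes and the right panel 13, all to the right of 0, and the error bars are wider on the right.

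Transcript length moved with the change in Eμ-Myc. Over all genes tested, the median log2 fold change went from 0.24 for genes whose longest transcript had up to 1000 bases to -0.38 for genes over 8000 bases. Eμ-Myc library 2 had the widest gap between short and long genes, 0.96 on the log2 scale, against -0.65 to 0.35 in the other libraries. Eμ-Myc library 1 held the lowest Eμ-Myc value for 20 of the 37 members, 18 of them called genes, against 27.6% of all genes. Of the 37 members 13 had their lowest Eμ-Myc value in library 2, against 35.9% of all genes. They were 8 of the 26 called genes, among them Polr1a (9216 bases), Polr1b, Polr2b, Polr3b, Polr3g and Rrn3, and 5 of the 11 not called. Those 5 were Polr2a (6740 bases), Bdp1 (9921 bases), Polr3a (4687 bases), Polr3f (4403 bases) and Taf1a (1472 bases).

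Each gene's change was set against genes of like length. The 6 shortest members, up to 1000 bases, had a median of 0.85, and the 2 longest, Polr1a and Bdp1, had 0.45. After a correction for length in each library, added after the data were seen, the medians of the 5 length classes ran from 0.50 to 0.76 for the members and from -0.05 to -0.03 for all genes. Under that correction 25 members were called, beside 57.8% of all genes (29.2% higher and 28.6% lower): Polr2g and Polr3c lost their calls and Polr3gl was called lower. Polr2a moved to 0.22 (adjusted p = 0.219) and Bdp1 to 0.30 (adjusted p = 0.077), neither of which was called, while Polr1a moved to 1.22 and Polr2k to 0.33.

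**Figure D5:**
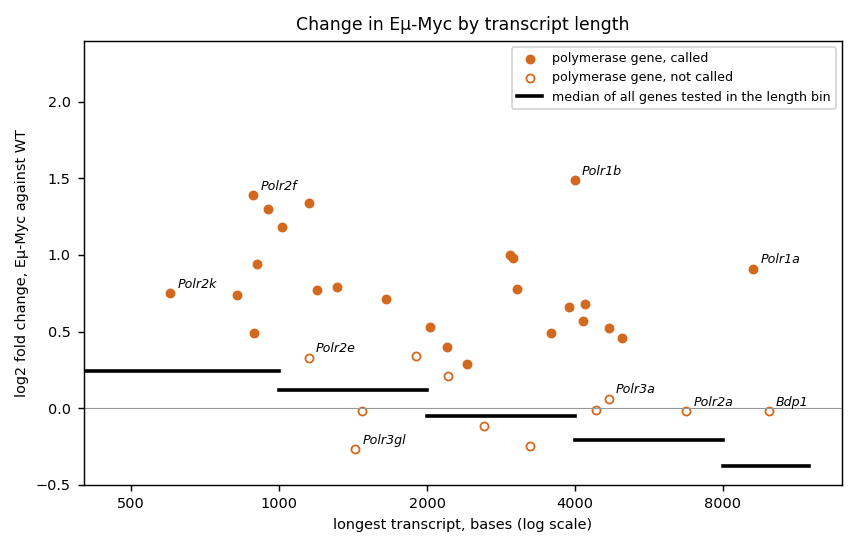
Log2 fold change of 36 of the 37 genes in Eμ-Myc against WT (vertical axis) by its longest transcript in bases (log axis), with the median of all genes tested in 5 length classes as bars. The bars fall from 0.24 to -0.38, the filled points lie above the bar of their length, and Polr2a and Bdp1 lie above theirs although they are near 0.

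Markers of other cells and of proliferation also moved with Eμ-Myc. The 6 proliferation markers all rose, from sums of 370 to 454 in WT to 1647 to 2340 in Eμ-Myc. The 8 T-cell markers all fell, from 447 to 2594 in WT to 91.3 to 128, and so did 5 of 5 NK-cell markers. Of the other lists, 2 of 4 plasma-cell and 1 of 6 B-cell markers fell. Of the myeloid markers 0 of 7 were called, at sums of 7982 to 24983 in WT and 5662 to 16145 in Eμ-Myc. Of the erythroid markers 0 of 6 were called, at sums of 77.7 to 857 in WT and 78.5 to 486 in Eμ-Myc. No gene of these lists was at 0 in every library of a group. In bulk libraries fewer cells of a type and less RNA per cell cannot be told apart, and the part of these lists in the polymerase results was not tested.

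PRPS2 loss was tested by setting the knockout group against Eμ-Myc, both of which carry the transgene. None of the 37 genes was called by limma, and 0 of 37 had an unadjusted p under 0.05. Over all 12559 genes tested 0.00796% were called, the single gene being Prps2, and 0.955%, or 120 genes, had an unadjusted p under 0.05. For 0 of 37 members did the groups fail to overlap, against 1.75% of all genes. The log2 fold changes ran from -0.20 for Polr2d and Polr2i to 0.38 for Bdp1, with SEs from 0.10 to 0.41. The smallest unadjusted p belonged to Bdp1 (0.136), Polr3gl (0.286, log2 fold change -0.12) and Polr3a (0.291, log2 fold change 0.15), all with an adjusted p of 1.00.

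The group mean hid a wide spread among the knockout libraries. The median SD on the log2 scale over the 37 genes was 0.17 for WT, 0.20 for Eμ-Myc and 0.47 for the knockouts, against 0.21, 0.22 and 0.39 over all genes tested. For 34 of 37 members, libraries 1 and 2 both lay below libraries 3 and 4, a pattern found in 47.8% of all genes. For 18 members, libraries 1 and 2 lay below and libraries 3 and 4 above every Eμ-Myc library, against 18.4% of all genes. Polr2f is an example, at 151, 183, 438 and 402 in knockout libraries 1 to 4, and so is Polr2h, at 75.4, 96.3, 255 and 228. Polr1d is close to it, at 157, 169, 271 and 255, but its upper libraries stayed within the Eμ-Myc range of 184 to 276.

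By class, the polymerase II subunits had medians of 0.10 and 0.21 in knockout libraries 1 and 2 and of 1.18 and 0.96 in libraries 3 and 4, relative to the WT mean on the log2 scale. The polymerase III subunits had 0.20 and 0.40 against 1.04 and 1.00. The Eμ-Myc libraries lay between these pairs in both classes, except that Eμ-Myc library 2, at 0.34 for polymerase III, was below knockout library 2. Polr3gl, Brf1 and Taf1a did not follow. The knockout values of Polr3gl were 64.5 and 56.2 against 61.5 and 55.0, interleaved between the pairs. Brf1 ran the other way, at 61.3 and 60.6 against 58.4 and 57.0, and Taf1a was mixed, at 56.5 and 62.1 against 62.0 and 59.8.

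The calls depended on which knockout libraries were used. The pairs were picked from the levels of these same libraries, and 34 of 37 members already followed that split. The direction of the calls below is therefore not independent of how the pairs were picked. Without libraries 1 and 2, 17 members were called higher than in Eμ-Myc, beside 3760 genes in all, which is 30.8% of those tested (1828 higher and 1932 lower). These included Polr1a, Polr1b, Polr2b, Polr3d, Polr3g, Rrn3 and Ubtf. Without libraries 3 and 4, 1 member was called, as lower, beside 541 genes, or 4.36%. With library quality weights 29 members were called, all as higher, beside 7698 genes, or 61.3% (34.7% higher and 26.5% lower). Beside these pairs, the sums of the proliferation markers were 1013, 1343, 3010 and 3015 and those of the myeloid markers 15163, 10875, 2991 and 1249. The NK-cell sums were 412, 279, 16.5 and 16.9. Their part in the pattern was not tested.

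In the knockout group against WT, 14 of the 37 genes rose and none fell, with 29.4% of the 12710 genes tested called, 17.6% as higher and 11.8% as lower. This comparison uses the same WT libraries as Eμ-Myc against WT. The 3 subunits of polymerase I alone were called again, with log2 fold changes of 1.16 for Polr1a, 1.69 for Polr1b and 0.99 for Polr1e. Of the shared subunits Polr1d, Polr2f and Polr2h were called, at 0.65, 1.35 and 1.22. Of polymerase II alone Polr2d was called, at 0.98, and of polymerase III alone 5 of 10 were, among them Polr3b, Polr3e, Polr3g and Polr3k, at 0.65, 0.81, 0.89 and 0.93. Rrn3 and Taf1d were the factors called, at 0.62 and 1.16. By class the medians were 1.16 for polymerase I alone, 0.76 for the subunits of all enzymes, 0.69 for those of polymerases I and III, 0.67 for polymerase III alone and 0.62 for polymerase II alone, an order that differs from that for Eμ-Myc. Without knockout libraries 1 and 2 these medians were 1.55, 1.41, 1.09, 1.02 and 1.07, and without libraries 3 and 4 they were 0.77, 0.22, 0.30, 0.32 and 0.15, so that the order changed again with the pair left out. The polymerase I factors and TFIIIB each had a median of 0.36 (0.65 and 0.54 without libraries 1 and 2, 0.09 and 0.18 without libraries 3 and 4). The median over the 37 genes was 0.65 (1.03 without libraries 1 and 2, 0.22 without libraries 3 and 4), against -0.04 over all genes, and total coverage scaling gave 0.53 and -0.17 and called Polr3gl lower.

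The largest rises had wide errors. Polr1b rose from 18.3 ± 2.88 in WT to 63.8 ± 26.2 in the knockout group, with an adjusted p of 0.0143 from limma. Polr2f rose from 104 ± 12.5 to 293 ± 147, with an adjusted p of 0.0326. For 17 members every knockout library was above every WT library, against 21.1% of all genes, and for Polr3gl, as for 17.0% of all genes, every one was below, at 59.3 ± 4.45 against 77.9 ± 10.8, a log2 fold change of -0.38 with an adjusted p of 0.0571. The Polr3g to Polr3gl ratio was 0.179, 0.246, 0.423 and 0.427 in the knockout libraries, all above the WT range.

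Most of these 14 calls were lost on leaving out any 1 of 6 libraries. Leaving out WT library 1, 2, 3 or 4 left 1, 0, 1 and 3 called members, and leaving out knockout library 3 or 4 left 1 each. The calls over all genes fell along with them, from 29.4% to 6.01%, 3.42%, 3.43% and 8.37% without each WT library in turn and to 4.71% and 4.06% without knockout library 3 or 4. Leaving out knockout library 1 gave 27, with 53.3% of all genes called. Without knockout libraries 1 and 2 the count was 32, of which 31 were higher and Polr3gl was lower, with 70.0% of all genes called, 35.4% as higher and 34.7% as lower. Without knockout libraries 3 and 4, 4 members were called, and 1368 of 12473 genes. Polr1b was called in 19 of 20 alternatives.

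The other genes of the pathway were taken as 6 lists, to be read beside the 28.3% of all genes called higher and 27.4% called lower in Eμ-Myc against WT, and the median of -0.06. In Eμ-Myc against WT, 15 of 18 general transcription factors of polymerase II rose and 1 fell, with a median log2 fold change of 0.69. Gtf2h4, of the helicase factor TFIIH, rose by 1.16, and Gtf2a1, of TFIIA, fell by 0.45. Of 13 polymerase III factors and regulators 6 rose and none fell, with a median of 0.36. Gtf3a, the factor for the small ribosomal RNA genes, rose by 1.24, and the polymerase III repressor Maf1 was not called, at 579 ± 37.3 in WT and 519 ± 67.8 in Eμ-Myc.

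Of 16 pausing and elongation genes 8 rose and 1 fell, with a median of 0.24, beside 28.3% higher and 27.4% lower over all genes. Supt16, of the histone chaperone FACT, rose by 1.19, and Ell, an elongation factor, fell by 0.57. Of 10 genes for polymerase assembly 8 rose, with a median of 0.57, and the ATPase Ruvbl1 had the largest change, from 41.3 ± 4.27 to 122 ± 13.0. Of 6 mitochondrial transcription genes 3 rose, among them Tfb1m at 0.91, and the mitochondrial polymerase Polrmt was not called, at 0.24.

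Of the 4 subunits listed under other symbols 3 rose. Cd3eap, the partner of Polr1e, rose from 17.7 ± 2.14 to 40.9 ± 7.02, and Twistnb, a stalk subunit of polymerase I, rose by 0.45. Crcp, a subunit of polymerase III, rose by 0.34, and Znrd1 was not called, at 0.34 with an adjusted p of 0.102 from limma. Setting the knockouts against Eμ-Myc called none of the genes in the 6 lists, against 0.00796% of all genes. Against WT the knockout group had higher calls for 5 of 18, 4 of 13, 5 of 16, 4 of 10, 0 of 6 and 1 of 4 genes in the order of the lists above, with Gtf2a1 called lower. Over all genes 17.6% were called higher and 11.8% lower there.

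Some values may hold reads of a neighbour. Libraries were directional, but it is not stated whether coverage was counted by strand. On the GENCODE annotation 34.1% of the exonic bases of Polr2i overlap Tbcb on the opposite strand, 27.7% of Polr2f overlap 1700088E04Rik, 20.3% of Brf1 overlap 9230104M06Rik and 18.2% of Polr2c overlap Dok4. The overlap was 15.9% for Polr2j with Lrwd1 and 14.8% for Taf1c with Dnaaf1. RefSeq lists pseudogenes of Polr2d and Polr2k, and their values are uncertain to the extent that reads were shared with them.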

How the data were processed

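Per the labels, the libraries were directional and made from polyadenylated RNA of splenic B lymphocytes. The authors deposited 1 table per library with the coverage of each gene symbol, a signal with 1 decimal, of which 91.6% of the values above 0 were not whole. Whether it is divided by gene length is not stated in the sources used here. The submitters' processing notes name mm10, DESeq and R 4.3.3, without role or order. The aligner, the annotation and the counting step are not given in the sources used here.

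One factor per library was the trimmed mean of log ratios to the geometric mean of the 12 libraries, without weights, with 30% of ratios and 5% of means trimmed at each end. A gene entered the test where 4 or more of the 8 libraries compared had a scaled coverage of 1 or higher, and all 37 members passed in every comparison. Each comparison was fitted to its own 8 libraries by limma 3.58.1 in R 4.3.3 (trended, robust empirical Bayes), on log2 of the scaled coverage plus a pseudocount of 0.5. Fold changes are on that scale. Tests were two-sided, and called means a p under 0.05 after Benjamini-Hochberg adjustment over every gene tested. The p-values set each difference between group means against the spread between the replicates, moderated across genes. The labels call the replicates biological. The fit was tested on simulated data. Python 3.11.15, pandas 2.3.3, numpy 2.4.6 and matplotlib 3.10.9 made the tables and figures.

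Members and lists were chosen with earlier results of these data known. Values by library are given for both large subunits of each enzyme, Polr3g, Polr3gl, Rrn3, Ubtf and the TFIIIB genes. In each comparison the 5 largest called changes are named, except that 1 member is counted but not reported singly here, or, with none called, the 3 smallest p. In each related list the called gene with the largest absolute change is named. The other members, Gtf2a1, Ell, Maf1, Polrmt, Tbp and the other subunits under older symbols were added after their values were seen. Transcript lengths and exon overlaps came from GENCODE M21.

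Alternatives were scaling by median of ratios or by total coverage, pseudocounts of 0.1 and 2, a filter of 10 in every library or none, library quality weights, a replicate block, one fit of all 12 libraries, and leaving out each library and either pair of knockout libraries. The pairs of knockout libraries were picked from the levels of these same libraries. A lowess correction for transcript length (span 0.3) was added for all comparisons, and with the block for knockouts against Eμ-Myc, after the data were seen. In that comparison same-numbered libraries deviated from their group means together across genes (r = 0.658, 0.194, 0.253 and 0.607), so the numbers met the condition for pairs, every r over 0.1. Libraries of different numbers correlated as much, knockout 2 with Eμ-Myc 1 at 0.607 and knockout 3 with Eμ-Myc 4 at 0.601, so the values do not single out these pairs. The labels do not state a pairing, the block was fitted only as an alternative, and it changed no call of a member there.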

Additional observations from a re-analysis of the deposited data

Results flagged for a closer look

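In 3 of the 111 sets of 4 libraries examined (37 genes in 3 groups), 1 library lay far from the other three. The gap to the nearest other library passed the Dixon limit as a share of the set's range, which chance passes in about 1 of 20 sets. Polr2k was 90.6 in Eμ-Myc library 1 and 136 to 144 in the others. Polr3a was 15.6 in Eμ-Myc library 2 and 19.3 to 19.8 in the others, and that library had the widest gap between short and long genes. Taf1a was 71.2 in WT library 4 and 54.5 to 56.1 in the others.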

How the results depend on the processing

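In Eμ-Myc against WT the count of called members stayed between 20 (one fit of all 12 libraries, 43.4% of all genes called) and 30 (quality weights, 70.5%) over the settings run, and the members' median between 0.45 and 0.62. Genes near 0 changed sign: Polr3a was -0.07 with total coverage scaling; Taf1a, Polr2a, Bdp1 and Polr3f were 0.00, 0.01, 0.05 and 0.07 with library quality weights; Polr2a, Bdp1 and Polr3f were 0.22, 0.30 and 0.11 with the length correction. None of these was called. Leaving out 1 library gave ranges of -0.13 to 0.17 for Polr2a, -0.09 to 0.12 for Polr3f, -0.12 to 0.19 for Bdp1 and -0.10 to 0.07 for Taf1a. In the knockout group against Eμ-Myc, where no member was called, 29 were with quality weights, 17 without knockout libraries 1 and 2, and 1 without knockout libraries 3 and 4, beside 61.3%, 30.8% and 4.36% of all genes; the cause was not tested.

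In the knockout group against WT, where 14 were called, 7 were without a filter, 24 with all 12 libraries in one fit, 33 with quality weights, 32 without knockout libraries 1 and 2, 4 without knockout libraries 3 and 4, and 0 to 27 on leaving out 1 library. Of all genes, 29.4% were called, and 16.2%, 47.4%, 82.9% and 70.0% under the first 4 of these settings, 1368 of 12473 without knockout libraries 3 and 4, and 3.42% to 53.3% on leaving out 1 library. Total coverage scaling gave -0.01 for Polr2a and -0.09 for Taf1a, and the length correction gave -0.06 for Taf1a. Without knockout libraries 3 and 4, Polr2e, Taf1b and Polr3f were -0.02, -0.04 and -0.08. Leaving out 1 library gave -0.00 to 0.24 for Polr2a and -0.01 to 0.12 for Taf1a. The causes were not tested, beyond the loss of samples in the left-out fits.

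The replicate block gave 7 called members in the knockout group against WT (12.5% of all genes) and 28 in Eμ-Myc against WT (57.5%). There the numbers did not pair the libraries: the correlations of same-numbered libraries were 0.397, -0.423, 0.135 and -0.0642 in the former and 0.232, -0.0988, 0.266 and 0.135 in the latter. In the knockout group against Eμ-Myc the replicate block left the count at 0. Over single genes and named values, 1227 of 1465 comparisons with an alternative kept direction and side of the threshold, 124 lost and 86 gained a call, and 28 changed sign. This tally holds all 37 genes for both comparisons with WT, but for knockouts against Eμ-Myc only the 3 with the smallest p. The read depth is unknown, so no detection limit is given for the low genes.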
